A study of Homo sapiens with 6 samples.

Results

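The 91 genes described here encode cytochrome P450 enzymes (CYP), UDP-glucuronosyltransferases (UGT) and cytosolic sulfotransferases (SULT). They were all protein-coding genes of the RefSeq annotation whose symbol starts with CYP, UGT or SULT and a digit, and made up 56 CYP, 22 UGT and 13 SULT genes of 19974 protein-coding genes on chromosomes 1 to 22 and X. The choice used names only and no measured value. The cells were HMC3, an established line of human microglia, and NRF2-bound DNA had been sequenced after chromatin immunoprecipitation (ChIP-seq). Peak lists of 4 libraries were used, 2 of vehicle-treated cells and 2 of cells that received 30 nM CDDO-Im for 4 h, all precipitated with the same anti-NRF2 antibody. CDDO-Im is a synthetic triterpenoid that releases NRF2 from its repressor KEAP1, and the labels do not say what the vehicle was. Peak lists hold no expression values, so the microglial label could not be set against marker genes. The labels do not say whether the 2 libraries of a group stem from separate cultures, so the spread between them may be technical. A permutation p-value here reflects only how the values of these 4 libraries are arranged, and does not measure that spread.

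Enzymes of these families handle drugs, dietary chemicals, steroids, bile acids, retinoids and other small lipids. P450 enzymes insert oxygen, using electrons passed on by P450 oxidoreductase or by adrenodoxin. Most UGT enzymes attach glucuronic acid from UDP-glucuronic acid, a few use other UDP-sugars, and SULT enzymes attach sulfate from the donor PAPS, which makes their substrates more soluble. NRF2 binds antioxidant response elements as a dimer with small MAF proteins and is best known for raising conjugation and reduction enzymes, whereas many P450 genes are classical targets of other receptors such as AHR, PXR and CAR. Many of the genes stand in tandem arrays, and liver and intestine are their main sites of expression.

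A peak was assigned to a gene when its summit lay inside the gene or within 20 kb of either end, and peaks of different libraries that overlapped were joined into 1 region. On these chromosomes the vehicle lists were 4098 and 7308 peaks long (vehicle 1 and 2) and the CDDO-Im lists 3882 and 12244 (CDDO-Im 1 and 2). From 16.3% to 82.5% of a list lay in megabases crowded with peaks, and none of the regions at CYP, UGT or SULT genes lay there. The tags (sequenced fragments piled up at a summit) were worked out from each peak's deposited fold enrichment and p-value. Absence from a list is not absence of NRF2, since the lists start at 4 tags and only at peaks that passed the peak caller's threshold.

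The share of CYP, UGT and SULT genes with a listed NRF2 peak was near that of all protein-coding genes. Of the 9 genes at which both CDDO-Im libraries listed a region, 6 were SULT genes. Of the 91 genes, 16 (17.6%) had a peak of any library, against 20.5% of all protein-coding genes. A region listed in both CDDO-Im libraries lay at 9 genes (9.89%), against 7.3% of all protein-coding genes. A region of both vehicle libraries lay at 1 gene (1.10%), against 1.07%, and that gene was also the only one with a region of all 4 libraries, against 1.06% of all genes. Counted from vehicle 2 alone (without vehicle 1) there were 5 genes with a vehicle peak, and from vehicle 1 alone (without vehicle 2) 4. For these counts from 1 list no share over all genes is given, so they are not compared with one. Regions that both CDDO-Im lists and no vehicle list contained lay at 7 genes (7.69%), against 4.85%. Over the 91 genes the share was thus near that of all genes in each count that has a share of all genes beside it. The median gene was also of like length, 25034 bp for the 91 genes and 24171 bp over all genes.

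By family, a region of both CDDO-Im libraries lay at 6 of 13 SULT genes (46.2%). These were SULT1A1, SULT1A2, SULT1A3, SULT1A4, SULT2A1 and SULT6B1. Such a region also lay at 3 of 56 CYP genes (5.36%), CYP7B1, CYP26C1 and CYP46A1, and at 0 of 22 UGT genes (0%). Of all protein-coding genes 7.3% had one, and the CYP share was near that. With the summit inside the gene, the counts were 4 SULT genes, 1 CYP gene and 0 UGT genes, where 4.46% of all protein-coding genes had such a region. Neighbouring genes of a family share windows and sequence, so these genes are not independent of each other and no test was made between families. The plot of shares by window gives the shares for other distances.

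**Figure D1:**
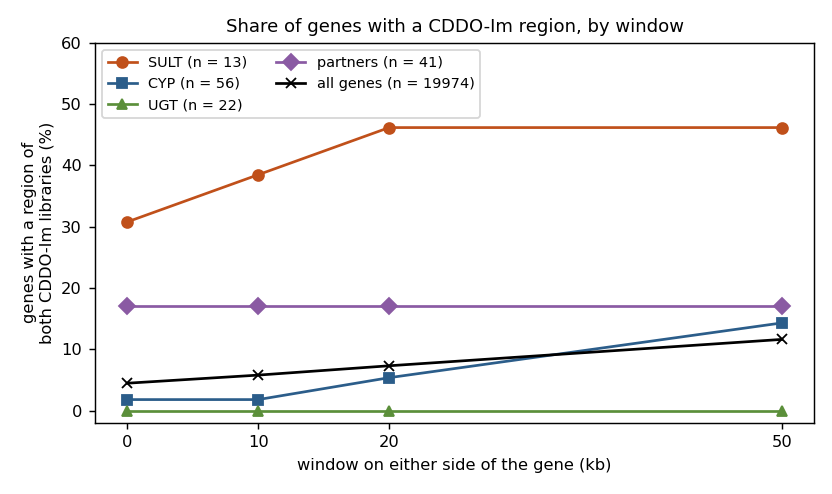
Percentage of genes (y axis) with an NRF2 region listed in both CDDO-Im libraries, by the window allowed on either side of the gene in kb (x axis, 0 for inside the gene), for the SULT, CYP and UGT genes, 41 partner genes and all protein-coding genes. Of all genes, 4.46%, 5.78%, 7.3% and 11.6% had such a region at 0, 10, 20 and 50 kb. At 20 kb the shares were 46.2% of SULT, 5.36% of CYP, 0% of UGT and 17.1% of partner genes. The partner genes were listed with earlier results of these data known.

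Counted per library, each peak once, vehicle 1 and 2 listed 3 and 4 peaks at the 91 genes and CDDO-Im 1 and 2 listed 10 and 10. Both CDDO-Im libraries thus lay above both vehicle libraries, by 1.53 on the log2 scale (2.89-fold). The exact two-sided permutation p was 0.333 (n = 2 and 2), the smallest that this design can give, so the difference could not pass a threshold of 0.05. At all protein-coding genes the libraries listed 697 and 747 peaks against 1879 and 2822, which is 1.67 on the log2 scale (3.19-fold), so that the difference at these genes was of the size seen at genes in general. The peaks formed 15 regions, of which 7 were held by both CDDO-Im libraries alone, 1 by these and vehicle 2, 1 by all 4 libraries and 6 by a single library. The plot of tags by region shows them all.

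**Figure D2:**
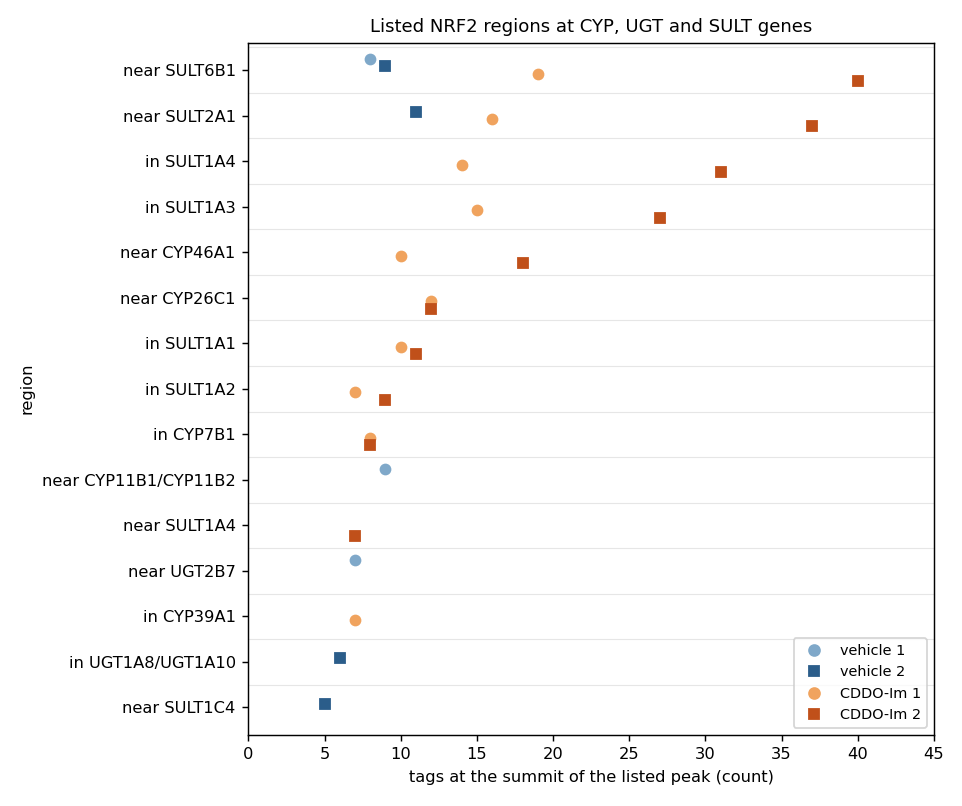
Tags at the summit of each listed peak (x axis, count) for the 15 regions at CYP, UGT and SULT genes (y axis), with 1 point for each library that listed the region; no point means not listed. The 9 regions of both CDDO-Im libraries held 7 to 19 tags in CDDO-Im 1 and 8 to 40 in CDDO-Im 2, and the 6 regions of a single library held 5 to 9 tags.

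The SULT1A genes, which encode the phenol sulfotransferases of chromosome 16, each held a region inside the gene in both CDDO-Im libraries and in neither vehicle library. SULT1A1 and SULT1A2 act mainly on small phenols, and SULT1A3 and SULT1A4 encode the same enzyme, which sulfates dopamine and other catecholamines. In SULT1A4 the region (hg38 chromosome 16, 29460309 to 29460630) held 14 tags in CDDO-Im 1 and 31 tags in CDDO-Im 2, with deposited fold enrichments of 8.49 and 18.2. In SULT1A3 the region (30199643 to 30199952) held 15 and 27 tags, with fold enrichments of 8.17 and 13.9. By tags these were the strongest regions of the SULT1A genes in both libraries.

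The regions of SULT1A1 and SULT1A2 held fewer tags. In SULT1A1 the region (28609371 to 28609641) held 10 tags (CDDO-Im 1) and 11 tags (CDDO-Im 2), with fold enrichments of 8.26 and 7.96. In SULT1A2 the region (28596432 to 28596692) held 7 and 9 tags, with fold enrichments of 6.01 and 4.96. These 2 genes stand side by side, so each also lay within 20 kb of the region of the other. For comparison, the 1428 regions found in both CDDO-Im lists and no vehicle list outside crowded megabases held a median of 11 tags in CDDO-Im 1 and 16 tags in CDDO-Im 2, so that SULT1A3 and SULT1A4 lay above and SULT1A1 and SULT1A2 below those medians in both libraries.

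The summits stood at a like place in all 4 SULT1A genes. In SULT1A4 they lay 513 and 562 bp after the annotated transcription start, and in SULT1A3 527 and 542 bp. SULT1A2, which is read toward lower coordinates, had them 507 and 475 bp inside its upper end. SULT1A1 is read in the same direction and its annotated span reaches farther up, so its summits lay 13900 and 13908 bp inside the upper end. Counted from the opposite end, the distances were 4217 and 4209 bp in SULT1A1, 4600 and 4632 bp in SULT1A2, 4528 and 4513 bp in SULT1A3, and 4540 and 4491 bp in SULT1A4.

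**Figure D3:**
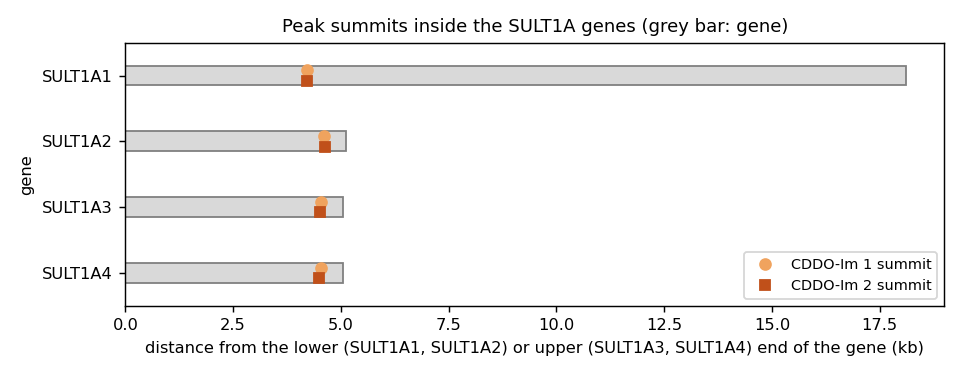
Position of the CDDO-Im peak summits (points) inside the 4 SULT1A genes (grey bars, to scale), as distance in kb from the lower end of SULT1A1 and SULT1A2 and from the upper end of SULT1A3 and SULT1A4 (x axis). All 8 summits lay between 4209 and 4632 bp from that end.

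SULT1A3 and SULT1A4 are near-identical copies in a segmental duplication, and the sequence in front of them shows how little there is to tell them apart. The RefSeq promoter windows of the genes (GRCh38.p14, 250 bases before to 50 after the start) had 0 differences over 300 bases. The 250 bases before the start are printed once because they are the same at chr16:29459663-29459912 (SULT1A4, plus strand) and chr16:30199005-30199254 (SULT1A3, plus strand), with no letter in capitals as the antioxidant response element core described below had no match there.
SULT1A4 and SULT1A3: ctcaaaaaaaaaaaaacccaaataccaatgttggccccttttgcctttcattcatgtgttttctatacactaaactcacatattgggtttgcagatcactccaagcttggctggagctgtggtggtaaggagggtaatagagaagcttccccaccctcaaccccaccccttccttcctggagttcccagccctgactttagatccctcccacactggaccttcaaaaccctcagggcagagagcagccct
The listed regions began 396 bp after the start of SULT1A4 and 388 bp after that of SULT1A3, beyond these windows, and the sequence under the peaks was not used here. The sources used here do not say how reads that match more than 1 copy were placed. The tags of the SULT1A genes are therefore uncertain as to copy, and their regions need not be independent.

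SULT2A1 encodes the sulfotransferase of dehydroepiandrosterone and bile acids. Its region (chromosome 19, 47895068 to 47895502) lay outside any protein-coding gene, 8974 to 9008 bp before the annotated start of SULT2A1, which was the nearest gene. It was not listed in vehicle 1 and held 11 tags in vehicle 2, 16 in CDDO-Im 1 and 37 tags in CDDO-Im 2. The fold enrichments were 9.13, 12.8 and 27.8 in the same order. Both CDDO-Im libraries were higher than the vehicle library that listed the region, also after division by the genome-wide background of each library (34.97 in vehicle 2 against 48.2 and 101). With a single listed vehicle value no test was made. How often this holds for other regions that vehicle 2 and both CDDO-Im libraries listed was not counted, so the difference is a description only.

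SULT6B1, a sulfotransferase with little known function, was the only one of the 91 genes with a region of all 4 libraries. The region (chromosome 2, 37215212 to 37215650) held 8 and 9 tags in vehicle 1 and 2 and 19 and 40 tags in CDDO-Im 1 and 2. Over the genome-wide background these were 25.4 and 28.6 against 57.3 and 109, a difference of 1.55 on the log2 scale (2.93-fold). The groups did not overlap, and the exact two-sided permutation p was 0.333 (n = 2 and 2), the smallest possible. Of the regions of all 4 libraries, 47.8% were higher in both CDDO-Im libraries in this way, and 87% of those outside crowded megabases, so the SULT6B1 region was like most of the latter. It lay inside the overlapping genes CEBPZ and CEBPZOS, 19320 to 19434 bp outside SULT6B1, and so was among the last to fall inside the 20 kb window.

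The 3 CYP genes at which both CDDO-Im libraries listed a region act on sterols and retinoids. CYP46A1 makes 24-hydroxycholesterol, the form in which the brain exports cholesterol. Its region (chromosome 14, 99670622 to 99670982) held 10 tags in CDDO-Im 1 and 18 tags in CDDO-Im 2, with fold enrichments of 7.95 and 13.5, and was listed in neither vehicle library. It lay 13516 to 13563 bp outside CYP46A1 and inside the neighbouring gene HHIPL1.

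CYP26C1 clears retinoic acid, as does its neighbour CYP26A1. The region (chromosome 10, 93043126 to 93043413) held 12 tags in each CDDO-Im library, with fold enrichments of 7.36 and 7.38, and no vehicle library listed it. It lay inside EXOC6, 17488 to 17518 bp before the start of CYP26C1 and 30165 to 30195 bp from CYP26A1.

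CYP7B1 hydroxylates oxysterols on the way to bile acids and also in the brain. Its region (chromosome 8, 64609921 to 64610238) was the only one of a CYP gene inside the gene itself in both CDDO-Im libraries. It held 8 tags in each, with fold enrichments of 6.76 and 5.11, and no vehicle library listed it. No other of the 9 regions had fewer tags in CDDO-Im 2. CYP7A1, the rate-limiting enzyme of bile acid synthesis, lay just beyond the window. The region near it held 13 and 20 tags in the CDDO-Im libraries and 7 in vehicle 1, and its CDDO-Im summits were 24815 and 24787 bp from the gene.

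Of the 9 regions of both CDDO-Im libraries, 5 lay inside the gene they were assigned to, 3 inside another protein-coding gene and 1 outside all. CDDO-Im 2 had more tags than CDDO-Im 1 in 7 regions and the same number in 2.

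Peaks listed in 1 library were weak and stood in both conditions. CYP39A1, an oxysterol hydroxylase, had a peak inside the gene in CDDO-Im 1 (chromosome 6, 46562634 to 46562839) with 7 tags. A further peak of CDDO-Im 2 with 7 tags (chromosome 16, 29483333 to 29483542) lay 18464 bp from SULT1A4 and 104 bp from NPIPB12. In vehicle 1 a peak with 9 tags lay between CYP11B1 and CYP11B2, the last enzymes of cortisol and aldosterone synthesis, 18656 and 12078 bp from them. Vehicle 1 also listed a peak with 7 tags 19202 bp from UGT2B7. Vehicle 2 listed a peak with 6 tags inside the overlapping genes UGT1A8 and UGT1A10, and a peak with 5 tags 10138 bp from SULT1C4. Fold enrichments of these 6 peaks lay between 4.54 and 7.60. The UGT family thus had only peaks of single vehicle libraries. They lay at 3 of 22 UGT genes (13.6%), and 20.5% of all protein-coding genes had a peak of any library.

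Of the 8 arrays of 3 or more of these genes, 4 held 0 listed peaks and 4 held 1 peak each. Outside crowded megabases, vehicle 1 and 2 listed 1216 and 1276 peaks in all, and CDDO-Im 1 and 2 listed 3249 and 4795. How many peaks stretches of like length hold elsewhere was not worked out, so the arrays are not called poor in peaks. Across the CYP2C array on chromosome 10 (4 genes), the CYP3A array on chromosome 7 (5 genes), the CYP2A-CYP2B-CYP2F-CYP2S array on chromosome 19 (6 genes) and the CYP4F array on the same chromosome (6 genes), with 20 kb on either side, all 4 libraries listed 0 peaks. The CYP4 array on chromosome 1 (5 genes) held 1 peak, in CDDO-Im 1 and farther than 20 kb from each of its genes. The UGT1A locus (9 genes that share their last exons), the stretch of UGT2 genes with SULT1B1 and SULT1E1 on chromosome 4 (12 genes over 1323 kb) and the SULT1C array (3 genes) each held 1 peak, in vehicle libraries.

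Distances to the nearest region of both CDDO-Im libraries were long for most of the 91 genes, as they were for protein-coding genes in general. The median distance was 365 kb for the 91 genes, 364 kb for CYP, 431 kb for UGT and 365 kb for SULT genes, and 434 kb over all protein-coding genes. Some genes were picked for their textbook roles after the values were seen. Among them the AHR targets CYP1A1 and CYP1B1 were 398 and 140 kb away, and the AHR- and NRF2-linked UGT1A6 was 135 kb away. The bilirubin transferase UGT1A1 was 203 kb, the nicotine oxidase CYP2A6 152 kb and the drug oxidase CYP3A4 459 kb from such a region. The plot of nearest regions shows every gene.

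**Figure D4:**
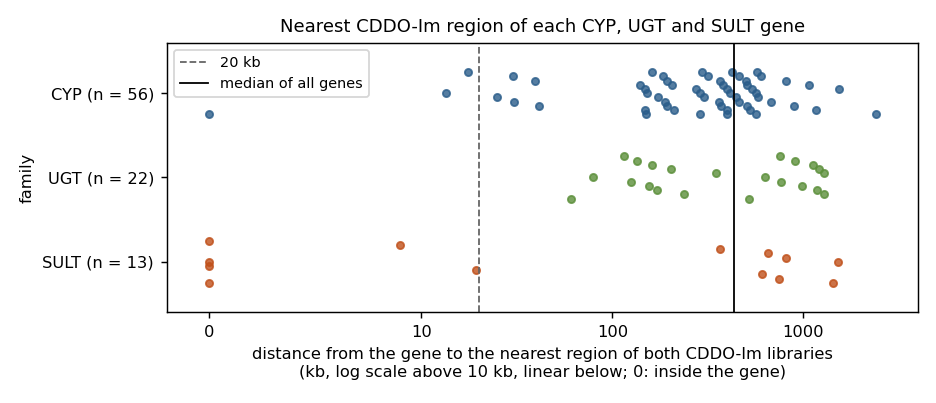
Distance of each CYP, UGT and SULT gene from the nearest region of both CDDO-Im libraries (x axis, kb, log scale above 10 kb and linear below, 0 for inside the gene), by family (y axis), with the 20 kb window (dashed) and the median of all protein-coding genes (solid, 434 kb). The 9 genes left of the dashed line are 6 SULT and 3 CYP genes, and no UGT gene was closer than 60.5 kb.

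Promoter windows were searched for the core of the antioxidant response element, TGACNNNGC, on both strands (GCNNNGTCA on the other). RefSeq windows were at hand for 68 of the 91 genes, 85 windows in all since a gene can have several starts. A match was found in 10 windows (11.8%) of 10 genes, and in 13.8% of the 22156 windows of all protein-coding genes. Listed peaks overlapped 0 of the 85 windows, and 0.167% of all windows. Shown here with the match in capitals and 10 bases on either side are 4 of the matches, from genes in arrays without a region of both CDDO-Im libraries. They are from UGT1A6 (chr2:233692782-233692810, plus strand), UGT1A5 (chr2:233712749-233712777, plus strand), CYP2B6 (chr19:40991231-40991259, plus strand) and CYP4F11 (chr19:15935005-15935033, minus strand), all on GRCh38.p14.
UGT1A6: aggtgaaagcTGACACGGCcatagttggt
UGT1A5: cagagcgagcGCAAGGTCAgatgagtttt
CYP2B6: gggtgcagagGCAGGGTCAggataaaagg
CYP4F11: ctgtgcccatGCTGTGTCAccctgagctg
The UGT1A6 match had the core in the direction of the gene, 98 bases before one of its starts. The other matches shown had it on the opposite strand. Of the matches not shown, that of CYP4V2 was also in the direction of the gene. The nearest summit of any library was 47.2 kb from that UGT1A6 start, 67.2 kb from UGT1A5, 275 kb from CYP2B6 and 468 kb from CYP4F11. Such matches are short and common, and a match is a description of letters and not a binding site.

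Other genes of the pathway were taken from a list of 41 partner genes. It held electron donors and haem carriers, suppliers of cosubstrate, enzymes of the reverse reactions, regulators, and P450 genes with other symbols. Both CDDO-Im libraries listed a region at 7 of the 41 genes (17.1%), against 7.3% of all protein-coding genes. In all 7 it lay inside the gene, where 4.46% of all protein-coding genes had such a region. The list was drawn up with earlier results of these data known, so the share is a description and no support for an excess. The median partner gene was longer (41646 bp) than that of all genes (24171 bp), and the part of gene length in the share was not tested. A region of both vehicle libraries lay at 1 partner gene, POR.

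POR encodes P450 oxidoreductase, which passes electrons to microsomal P450 enzymes. Its region (chromosome 7, 75937783 to 75938311) lay inside the gene, 22909 to 22945 bp from the lower end. It held 14 and 9 tags in vehicle 1 and 2 and 51 and 85 in CDDO-Im 1 and 2, more than any region at a CYP, UGT or SULT gene in either CDDO-Im library. Over the genome-wide background these were 44.4 and 28.6 against 154 and 231, a difference of 2.40 on the log2 scale (5.29-fold). The groups did not overlap, with an exact two-sided permutation p of 0.333 (n = 2 and 2), the smallest possible. Of the regions of all 4 libraries, 47.8% were higher in both CDDO-Im libraries in this way. Outside crowded megabases, where the POR region lay, 87% were. CYB5R4, a reductase of the cytochrome b5 group, had a weak region inside the gene (chromosome 6, 83867595 to 83867910). The CDDO-Im libraries held 6 and 8 tags there, and no vehicle library listed it. CYB5A had a peak inside the gene in CDDO-Im 1 alone, with 9 tags.

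Of the 7 genes of cosubstrate supply, both CDDO-Im libraries listed a region at 3 (42.9%), against 7.3% of all protein-coding genes. The median length of these 7 genes was 50592 bp, longer than over all genes. These genes, too, were listed with earlier results of these data known. UGDH makes UDP-glucuronic acid, the donor of most UGT enzymes. Its region (chromosome 4, 39515131 to 39515487) lay inside the gene, 12117 to 12134 bp after the start, and held 10 tags in CDDO-Im 1 and 26 tags in CDDO-Im 2, with no vehicle peak. PAPSS1 and PAPSS2 make PAPS, the donor of all SULT enzymes. The PAPSS2 region (chromosome 10, 87705286 to 87705670) was not listed in vehicle 1 and held 15 tags in vehicle 2, 20 in CDDO-Im 1 and 32 tags in CDDO-Im 2. The PAPSS1 region (chromosome 4, 107710813 to 107711089) held 12 and 9 tags in the CDDO-Im libraries and was not listed under vehicle. UGP2, which makes UDP-glucose, had a peak 2766 bp outside the gene in CDDO-Im 2 alone, with 12 tags. SLC35B3, a PAPS transporter of the Golgi, had a peak inside the gene in vehicle 2 alone, with 6 tags. A further peak inside PAPSS2 was listed in CDDO-Im 2 alone, with 5 tags.

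Of 15 regulators, RXRA alone (6.67%) had a place listed in both CDDO-Im libraries, a share near the 7.3% of all protein-coding genes. RXRA is the partner receptor of PXR, CAR, PPARA and VDR. The intragenic region (chromosome 9, 134407325 to 134407619) held 9 tags in CDDO-Im 1 and 14 tags in CDDO-Im 2, and no vehicle library listed it. A peak of any library lay at 3 of the 15 regulators (20%), against 20.5% of all protein-coding genes. The receptor genes AHR, NR1I2 (PXR) and NR1I3 (CAR) were among those with no listed peak within 20 kb. Single-library peaks lay near VDR (CDDO-Im 2, 8 tags) and near TIPARP (vehicle 1, 6 tags), and 2 more lay inside RXRA (CDDO-Im 1 and CDDO-Im 2, 9 tags each). Of the P450 genes with other symbols, TBXAS1 (thromboxane synthase) had 2 regions inside the gene and PTGIS (prostacyclin synthase) none. The first TBXAS1 region (chromosome 7, 139914232 to 139914610) held 35 and 72 tags in the CDDO-Im libraries and had no vehicle peak. The second (139915987 to 139916380) was not listed in vehicle 1 and held 12 tags in vehicle 2, 40 in CDDO-Im 1 and 59 tags in CDDO-Im 2. The 5 genes of the reverse reactions had 0 regions listed in both CDDO-Im libraries, against 7.3% of all protein-coding genes. GUSB among them had a peak inside the gene in CDDO-Im 2 alone, with 9 tags.

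**Figure D5:**
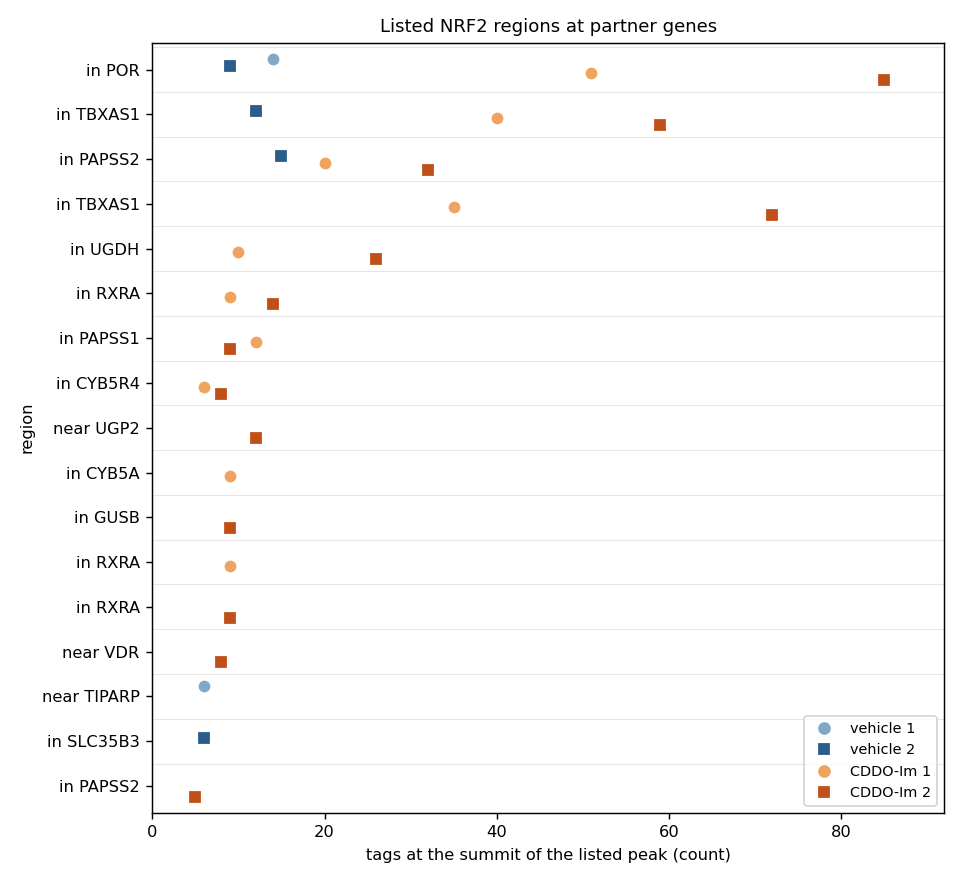
Tags at the summit of each listed peak (x axis, count) for the regions at partner genes (y axis), with 1 point for each library that listed the region; no point means not listed. The POR region and the 2 TBXAS1 regions held 35 to 85 tags in the CDDO-Im libraries, and 9 to 14 tags in the vehicle libraries that listed them.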

How the data were processed

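NRF2 ChIP-seq peak lists of 4 HMC3 libraries were used, grouped by sample title, since the treatment text is the same for all samples. The 2 input samples were not analysed here. The submitters' processing notes name MACS2 (version 2.2.7.1), BWA (version 0.7.17) and bcl2fastq (version 2.15.0), and the builds hg38 and GRCm38. Positions fit hg38. Which control, threshold and treatment of duplicate reads the authors used is not given in the sources. The deposited lists give, per peak, a fold enrichment (ratio), a −log10 p and −log10 q, and a deposited score of 10 times the −log10 q. Fold enrichments are the authors' values and describe peaks within a list.

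Tags and local background were recovered from fold (tags plus 1 over background plus 1) and p (Poisson tail above the tags), accepting a deviation in −log10 p of up to 0.001 plus 0.0002 times the deposited value. Every one of the 27 peaks at the CYP, UGT and SULT genes had a single match. Library totals are not in the lists, so the lowest background of a library (0.316, 0.315, 0.332 and 0.367 tags for vehicle 1 and 2 and CDDO-Im 1 and 2) stood for its depth. On simulated data 1000 of 1000 tag numbers and 200 of 200 gene windows were recovered. Peaks sharing 1 bp were joined. A gene had a region of both libraries when both summits of a joined region lay in its window. Crowded megabases held more than 20 regions. Arrays were 3 or more of the genes with gaps of at most 200 kb.

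Genes and promoter windows came from RefSeq tables on GRCh38.p14, with a strand for part of the genes and no exons. Libraries were compared by exact permutation tests. All genes with a region in 2 or more libraries, single-library peaks up to 30, and partner genes with a region of both libraries of a group were to be named, and other partner genes were named after their values were seen. Genes, lists and tests were chosen with earlier results of these data known. Python 3.11.15, pandas 2.3.3 and scipy 1.17.1 were used.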

Additional observations from a re-analysis of the deposited data

How the results depend on the processing

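The number of genes at which both CDDO-Im libraries listed a region (9 of 91) was 5 with the summit inside the gene (all protein-coding genes 4.46%), 14 within 50 kb (11.6%) and 3 where only peaks of −log10 q 10 or more were kept. It was 6 within 10 kb (5.78%), 8 for peaks whose −log10 q was 5 or more, and 9 outside crowded megabases and under both other overlap rules. Leaving out a library gave 9 to 10. The number with a region of both vehicle libraries (1) was 0 inside the gene (all protein-coding genes 0.566%), 0 within 10 kb (0.811%) and 2 within 50 kb (1.81%). For peaks of −log10 q 10 or more it was 0. Leaving out a library gave 1 to 5, with 5 without vehicle 1 and 4 without vehicle 2, which rest on 1 list each. Counts under −log10 q limits or other overlap rules, outside crowded megabases or with a library left out have no share of all genes here. The log2 difference in peaks per library (1.53) lay between 1.20, as a share of all listed peaks, and 1.90, for peaks of −log10 q 5 or more, and between 1.32 and 1.74 with a library left out. It could not be given inside the gene, within 10 kb or for peaks of −log10 q 10 or more, where a vehicle library listed 0 peaks. The log2 difference at the SULT6B1 region (1.55) was larger under the 3 other scalings (from 1.60), and was 1.09 without CDDO-Im 2 and 2.02 without CDDO-Im 1. Nothing in the labels says that equal replicate numbers pair the libraries, and same-numbered deviations had a correlation of 0.24 over 433 regions of all 4 libraries and -0.04 over the 230 outside crowded megabases. With the replicate block the differences were 1.53 and 1.55 as before, with an exact sign-flip p of 0.5, the smallest for 2 pairs. Depth limits all absences, since most regions rested on under 20 tags.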
